A study of Mus musculus with 594 samples.

Results

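The small molecule BRD-K17311666, known here only by its code name, was given to 2 lines grown from mouse pancreatic islet tumours, and its effect on gene expression was read on 18 arrays of the 594 in the study. The members were found by the compound's name in the sample titles. The glucagon-producing line αTC1 and the insulin-producing line βTC3 each received 4.3 µM of the compound, dissolved in DMSO, for 1, 6 or 24 h, with 3 arrays per line and time. The comparison groups received DMSO alone and held 14 arrays at each time in αTC1, and 12, 10 and 12 arrays at 1, 6 and 24 h in βTC3. All cells had been seeded 24 h earlier in low-glucose medium with serum, and 1 µg of total RNA was labelled and hybridised to Affymetrix arrays. Each line is a single tumour-derived line driven by a viral T antigen transgene, so it models a dividing endocrine cell rather than a resting islet cell. The labels do not say that the arrays of a group came from separate cultures, so p-values measure the spread between arrays, which may be technical. The study gave 28 other compounds in the same way, and the compound is set against all of them at the end. Doses of those named there were 5 µM for BRD-K22912318, 4.1 µM for BRD-K90919562, 3.7 µM for BRD-K62233722, 3.2 µM for BRD-K92415738, 3 µM for BRD-A94377914, 1.3 µM for SAHA, 10 µM for pyroxamide, 1.4 µM for apicidin, 0.12 µM for HC-toxin and 1.7 µM for chaetocin. The anilides MS-275, CI-994 and MGCD-0103 were given at 2.9, 10 and 1.1 µM. Each compound had 3 arrays per line at 6 and 24 h, except in αTC1 at 24 h, where SAHA, CI-994, scriptaid, BRD-K92415738 and BRD-K62233722 had 2 and chaetocin had 4.

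Several of the named compounds in the study are known inhibitors of enzymes that modify chromatin. Histone acetyltransferases add acetyl groups to histone tails and deacetylases remove them, while methyltransferases act on histones or on DNA itself, and all of them alter how readily a gene is transcribed. Deacetylase inhibitors are known to raise and lower many transcripts within hours and to slow the division of tumour cells. The labels name no target for BRD-K17311666. Pancreatic alpha and beta cells keep their identity through transcription factors such as Nkx2-2, Pdx1, Neurod1 and the Irx family, and so the genes of islet identity, of the cell cycle and of stress pathways are described below.

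The labelled lines were checked first by their hormones, and levels are log2 intensities throughout. In αTC1 at 24 h the glucagon gene Gcg stood at 12.93, 12.41 and 12.696 with the compound against 11.900 to 12.74 (median 12.31) in DMSO. In βTC3 at 24 h the insulin gene Ins2 stood at 13.28, 13.003 and 13.18 against 13.02 to 13.36 (median 13.24), so both lines held their hormone at a high level with and without the compound. Insulin was not the only hormone of βTC3, where in DMSO at 24 h Sst had a mean of 12.71, Npy of 12.96 and Gcg of 8.79. Ttr, listed with the alpha cell markers, had a mean of 12.87 there and 11.40 in αTC1. The summed linear intensity of 14 markers of non-endocrine cells was lower with the compound in αTC1 at 24 h, at 193 to 217 against 281 to 375 in DMSO, and 11 of the 14 were not called. The members behind the call there were the acinar protease Cela1 (-1.996 ± 0.22) and the duct keratin Krt7 (-1.37 ± 0.16), which fell, and the macrophage marker Cd68 (1.37 ± 0.27), which rose. Of 6 markers of other islet hormone cells 0 were called at 6 h by limma and 1 was lower at 24 h in each line, Pyy in αTC1 (-0.35 ± 0.12) and Npy in βTC3 (-0.16 ± 0.049). Pyy lay near the low end of the range, with means of 3.61 with the compound and 3.97 in DMSO. Npy ranked 2 by brightness in βTC3, near the top of the scale. The Pyy call was lost under 5 of the alternatives tried, among them the omission of replicate 2 or of replicate 3, and the Npy call under 4, among them the fit without the batch term. The part of these markers in the other results was not tested, and in such bulk RNA fewer cells of a type cannot be told apart from less RNA per cell. In size of effect replicate 2 of αTC1 at 24 h stood apart, since it had a slope of 1.25 against the mean change of the genes called and changed at least 2-fold, while replicates 1 and 3 had slopes of 0.92 and 0.80. Calls of named genes that ended without it are given as such below.

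A gene was called when its adjusted p was under 0.05, in fits made separately for each line and time, with batch as a term. After 1 h 5 genes of 11807 were called in αTC1 (0.0423%) and 12 in βTC3 (0.102%). After 6 h 4207 genes were called in αTC1 (35.6%), of which 2353 were higher and 1854 lower with the compound. In βTC3 at 6 h 4446 genes were called (37.7%), 2198 higher and 2248 lower. After 24 h the count was 3473 in αTC1 (29.4%), with 1668 higher and 1805 lower, and 2842 in βTC3 (24.1%), with 1591 higher and 1251 lower. When arrays were centred on their medians the αTC1 calls at 6 h divided into 1989 higher and 2654 lower, so the balance of directions there depends on the scaling.

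**Figure D1:**
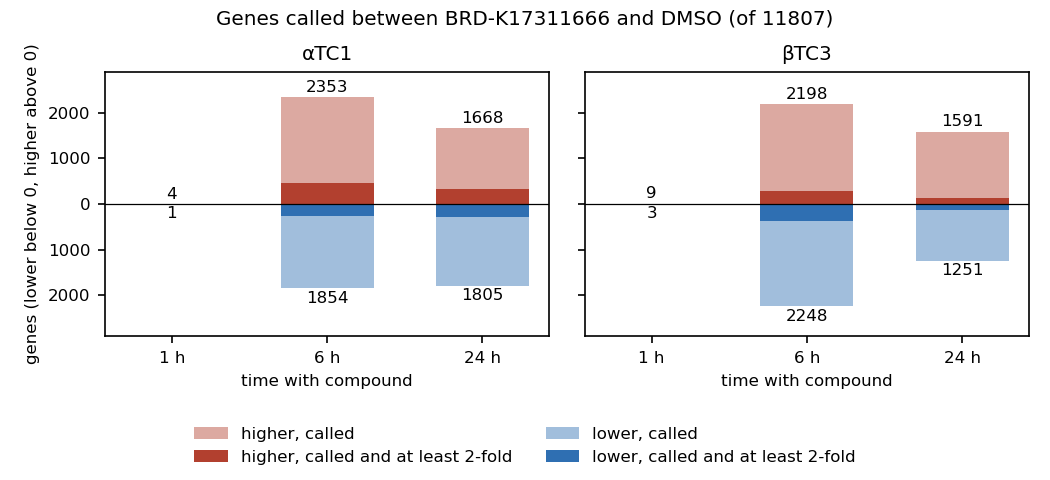
Genes called between BRD-K17311666 and DMSO, by time, in αTC1 (left) and βTC3 (right); bars above 0 count genes higher with the compound, bars below 0 genes lower, and the dark part of each bar counts those changed at least 2-fold. The bars are near 0 at 1 h and highest at 6 h, with 4207 genes in αTC1 and 4446 in βTC3.

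Fewer of these genes changed at least 2-fold, that is by a log2 change of 1 or more. They were 731 in αTC1 at 6 h (6.19%), with 458 higher (3.88%) and 273 lower (2.31%). At 24 h αTC1 had 598 (5.06%), with 320 higher (2.71%) and 278 lower (2.35%). In βTC3 they were 674 at 6 h (5.71%), with 296 higher (2.51%) and 378 lower (3.2%), and 260 at 24 h (2.2%), with 138 higher (1.17%) and 122 lower (1.03%). The 3 arrays with the compound all lay outside the range of the DMSO arrays for 20.9% of all genes in αTC1 at 6 h, 20.3% at 24 h, 20.8% in βTC3 at 6 h and 13.4% at 24 h. At 1 h these shares were 0.296% and 0.483%. The genes named next at 6 and 24 h for the size of their change were taken from those outside the range, so the separation of their groups follows from that choice. A gene's brightest probe set stands for it. Of 323 values of named genes, 46 differed in size by over 1.5 times, with the same sign, when the mean of all probe sets of a gene was used, 42 of them toward a smaller change. That mean is given beside many of these values but not all. A value printed without it therefore need not hold over all probe sets of the gene.

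After 1 h few genes were called. Txnip, an inhibitor of thioredoxin that responds to glucose, was higher in both lines. In αTC1 its level was 8.14, 8.66 and 8.51 against 6.47 to 7.94 (median 7.26) in DMSO, a log2 change of 1.34 ± 0.23 (SE; limma adjusted p = 0.000893). In βTC3 it was 8.15, 8.29 and 7.68 against 6.46 to 8.07 (median 7.43), a change of 0.895 ± 0.13 (limma adjusted p = 5.11e-05). All 3 arrays lay above the DMSO range in αTC1, while in βTC3 the groups overlapped. Sertad3, a transcriptional co-regulator, was called in both lines (1.18 ± 0.20 in αTC1 and 0.72 ± 0.16 in βTC3), as was Clp1, a kinase of RNA processing (1.05 ± 0.19 and 0.73 ± 0.15). The other calls in αTC1 were the zinc finger gene Zkscan14, which rose by 0.84 ± 0.15, and the MAP kinase phosphatase Dusp1, at -0.67 ± 0.13.

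In βTC3 at 1 h the antiproliferative gene Tob2 rose most, with levels of 7.24, 7.74 and 7.25 against 5.44 to 7.19 (median 6.13) in DMSO and a change of 1.15 ± 0.25. Ier3, an immediate early gene, rose by 0.91 ± 0.16, the kinase Dyrk3 by 0.75 ± 0.13 and Sap30, a subunit of the Sin3 deacetylase complex, by 0.56 ± 0.10. The genes that fell in βTC3 were Ing3, a reader subunit of an acetyltransferase complex (-0.69 ± 0.15), Asb9 (-0.64 ± 0.14) and Cd300ld (-0.51 ± 0.11). Each of the 1 h calls named here was lost under at least 1 other setting or without 1 array. The number of calls ran from 1 to 5 in αTC1 and from 1 to 17 in βTC3 when single arrays were left out.

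After 6 h in αTC1 the largest rise was that of Rsad2, which encodes the antiviral enzyme viperin. Its level was 8.28, 7.98 and 8.06 with the compound against 4.12 to 5.05 (median 4.63) in DMSO, a 10.8-fold difference (3.44 ± 0.19, limma adjusted p = 1.78e-25). Rras, a small GTPase related to Ras, stood at 6.42, 6.51 and 6.14 against 2.78 to 3.300 (median 3.07) (3.35 ± 0.13). Gsta4, a glutathione S-transferase that detoxifies lipid aldehydes, stood at 7.05, 7.0 and 7.13 against 3.56 to 4.14 (median 3.86) (3.24 ± 0.23). Replicate 1 was the highest compound array for Rsad2, replicate 2 for Rras and replicate 3 for Gsta4. Rab40b, a Rab-family GTPase, rose by 3.38 ± 0.19, Eaf2, a partner of the transcription elongation factor ELL, by 3.14 ± 0.13, and Serpini1, the protease inhibitor neuroserpin, by 2.85 ± 0.19.

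The largest fall in αTC1 at 6 h was that of Kcnk2, a background potassium channel that sets the resting membrane potential. Its level was 4.397, 3.83 and 4.62 against 7.701 to 8.55 (median 8.04), a 13.4-fold difference (-3.75 ± 0.17, limma adjusted p = 9.8e-31). Slc38a4, an amino acid transporter, fell to 4.13, 4.99 and 5.201 from 6.71 to 8.41 (median 7.85) (-3.09 ± 0.23). G6pc2, the islet form of the glucose-6-phosphatase catalytic subunit, fell to 5.91, 5.64 and 6.21 from 7.400 to 9.25 (median 8.49) (-2.72 ± 0.18). The lowest array was replicate 2 for Kcnk2 and G6pc2 and replicate 1 for Slc38a4. The islet transcription factor Nkx2-2 changed by -2.68 ± 0.18, the histone variant gene Macroh2a2 by -2.48 ± 0.16 (-1.26 as the mean of its probe sets) and D17H6S56E-5 by -2.47 ± 0.18.

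In βTC3 at 6 h the largest rises belonged to other genes in part. Insl6, a member of the relaxin and insulin family, stood at 7.04, 6.93 and 7.05 against 3.65 to 4.33 (median 4.02) (3.02 ± 0.16, limma adjusted p = 5.25e-26). Ptger4, a receptor for prostaglandin E, stood at 6.43, 6.88 and 6.51 against 3.27 to 3.93 (median 3.79) (2.75 ± 0.19). Abhd3, a phospholipase, stood at 6.57, 6.48 and 6.83 against 3.502 to 4.16 (median 3.76) (2.68 ± 0.19). The highest compound array was replicate 2 for Ptger4 and replicate 3 for Abhd3, while those of Insl6 were close together. Eaf2 rose by 2.68 ± 0.16, Rab40b by 2.49 ± 0.20, and Mitf, a transcription factor of pigment and lysosomal genes, by 2.43 ± 0.21. As means of their probe sets Ptger4 rose by 1.55, Rab40b by 1.56 and Mitf by 1.47.

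The gene that fell most in βTC3 at 6 h was Tk1, thymidine kinase, which supplies nucleotides in S phase. Its level was 4.74, 4.34 and 5.37 against 7.52 to 8.18 (median 7.900) (-2.96 ± 0.19, limma adjusted p = 5.77e-22). Sdcbp2, a syntenin-family adaptor, fell to 3.33, 3.95 and 3.62 from 5.94 to 6.89 (median 6.34) (-2.74 ± 0.17). Exosc10, a ribonuclease of the nuclear exosome, fell to 6.19, 5.06 and 5.86 from 8.15 to 8.54 (median 8.35) (-2.72 ± 0.17). Replicate 2 was the lowest for Tk1 and Exosc10 and replicate 1 for Sdcbp2. D230025D16Rik changed by -2.65 ± 0.14 and Slc2a5, a fructose transporter, by -2.59 ± 0.12. The galanin receptor gene Galr1 changed by -2.62 ± 0.21 on the probe set used, but another of its probe sets changed by 0.14, so its fall rests on 1 probe set.

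After 24 h in αTC1 Gsta4 and Rsad2 led the rises. Gsta4 stood at 8.802, 9.06 and 8.48 against 3.63 to 4.24 (median 3.77), a 29.1-fold difference (4.86 ± 0.29, limma adjusted p = 4.78e-22). Rsad2 stood at 9.26, 10.33 and 8.98 against 4.39 to 5.63 (median 4.86) (4.401 ± 0.38). Hba-a1, an alpha-globin gene best known from red blood cells, stood at 8.04, 8.705 and 7.66 against 3.74 to 4.504 (median 4.15) (3.76 ± 0.25). Replicate 2 was the highest compound array for each. Rras rose by 3.67 ± 0.27, Serpini1 by 3.52 ± 0.24, and Sqor, a mitochondrial enzyme of sulfide oxidation, by 3.19 ± 0.24 (1.61 as the mean of its probe sets).

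The largest falls in αTC1 at 24 h were those of Cryba2 and Kcnk2. Cryba2, a crystallin-family gene, stood at 4.57, 3.703 and 4.89 against 7.255 to 8.11 (median 7.76) (-3.14 ± 0.26, limma adjusted p = 6.44e-16). Kcnk2 stood at 4.62, 3.6 and 5.28 against 7.38 to 8.46 (median 7.91) (-3.096 ± 0.28). Bcat1, which begins the breakdown of branched-chain amino acids, stood at 5.12, 4.56 and 4.81 against 7.14 to 7.63 (median 7.33) (-2.45 ± 0.25). Replicate 2 was the lowest compound array for each. Ap4s1, a subunit of an adaptor complex for vesicle transport, changed by -2.52 ± 0.25, the GTPase gene Rab34 by -2.36 ± 0.18 and the mitochondrial phosphatase gene Ptpmt1 by -2.21 ± 0.20.

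After 24 h in βTC3 the rises included several metabolic enzymes. Rida, a deaminase that removes reactive imines, stood at 7.38, 7.68 and 7.38 against 4.12 to 4.73 (median 4.39) (2.92 ± 0.20, limma adjusted p = 3.13e-19). Rras stood at 6.45, 6.16 and 6.81 against 3.18 to 4.34 (median 4.01) (2.75 ± 0.19). Dpyd, the first enzyme of pyrimidine breakdown, stood at 5.67, 5.65 and 6.27 against 2.81 to 3.64 (median 3.302) (2.596 ± 0.26). Replicate 2 was the highest for Rida and replicate 3 for Rras and Dpyd, and as the mean of its probe sets Dpyd rose by 1.72. The glutathione S-transferase genes Gstk1 (2.700 ± 0.21) and Gstt1 (2.27 ± 0.18) rose as well, as did Insl6 (2.42 ± 0.19).

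The falls in βTC3 at 24 h were led by C1qa, a chain of complement component C1q, with 5.86, 5.23 and 4.67 against 7.38 to 8.98 (median 8.29) (-2.47 ± 0.23, limma adjusted p = 3.13e-14). Rbpms, an RNA-binding protein, stood at 4.09, 4.48 and 4.08 against 6.12 to 7.48 (median 6.68) (-2.38 ± 0.16). Its other probe sets did not move together at 6 h, where they changed by -2.16, 0.62 and 0.25 beside -2.56 on the set used, and their mean changed by -0.96 at 6 h and -1.07 at 24 h. H2ax, a histone variant of DNA repair, stood at 7.19, 7.42 and 6.88 against 8.79 to 9.77 (median 9.25) (-2.16 ± 0.13), and Th, tyrosine hydroxylase of catecholamine synthesis, at 5.796, 5.59 and 6.05 against 7.63 to 8.72 (median 8.42) (-2.13 ± 0.22). The lectin gene Lgals2 changed by -2.23 ± 0.24 and D230025D16Rik by -2.08 ± 0.15. Both H2ax and Th also fell in αTC1 at 24 h, with changes of -1.96 ± 0.18 and -2.03 ± 0.22.

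**Figure D2:**
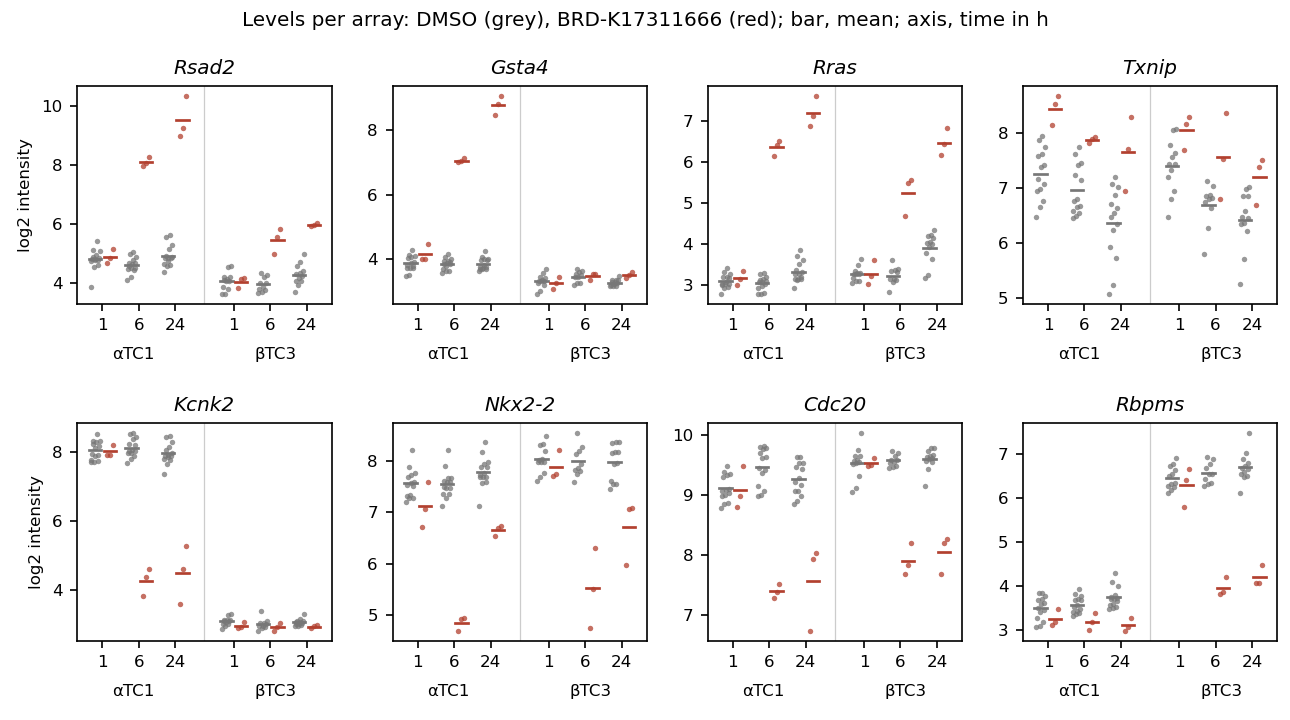
Log2 intensity of 8 genes on each DMSO array (grey) and each BRD-K17311666 array (red), by line and by time in h, with a bar at the group mean; each panel has its own axis. Rsad2 and Rras rise in both lines at 6 and 24 h and Gsta4 in αTC1, while Kcnk2 falls in αTC1 to 4.397, 3.83 and 4.62 at 6 h.

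The gene lists are described by the number of members called in each direction, beside the share of all genes called that way. Called higher were 19.9% of all genes in αTC1 at 6 h, 14.1% in αTC1 at 24 h, 18.6% in βTC3 at 6 h and 13.5% in βTC3 at 24 h. Called lower were 15.7%, 15.3%, 19% and 10.6% in the same order.

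Mitosis genes fell in both lines at both later times. Of 19 measured, 15 fell in αTC1 at 6 h and 13 at 24 h, and 16 fell in βTC3 at each of the times. Their median change was -0.70, -0.53, -0.95 and -0.57 in that order, while the median of all genes was -0.02, -0.03, -0.01 and -0.02. Cdc20, which activates the ubiquitin ligase that starts anaphase, stood at 7.53, 7.28 and 7.39 in αTC1 at 6 h against 8.98 to 9.82 (median 9.54) in DMSO (-1.98 ± 0.13), and at 7.83, 7.68 and 8.21 in βTC3 against 9.45 to 9.74 (median 9.57) (-1.61 ± 0.11). No array with the compound reached the DMSO range in either line. The mitotic kinase Plk1 changed by -1.42 ± 0.14 and -1.32 ± 0.12, the kinase Aurka by -1.21 ± 0.18 and -1.36 ± 0.16, and Ube2c, a ubiquitin-conjugating enzyme of mitotic exit, by -0.96 ± 0.11 and -1.63 ± 0.098. At 24 h Cdc20 remained lower, at -1.57 ± 0.20 in αTC1 and -1.45 ± 0.15 in βTC3, as did Ccnb2, a B-type cyclin (-1.22 ± 0.16 and -0.97 ± 0.14). The exception was the checkpoint kinase Bub1, which was called higher in αTC1 at 6 h (0.41), a gene singled out after its value was seen, whose call was lost without the batch term.

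The promoters of these genes are shown because the members moved together. Promoters of mitotic genes are known to carry a CHR element, TTTGAA, and CCAAT boxes. The 250 bases upstream of the start in RefSeq (build GRCm38.p6) were searched on both strands, and capitals mark the matches. Cdc20 lies at chr4:118437344-118437593 on the minus strand, Ube2c at chr2:164769679-164769928 on the plus strand and Ccnb2 at chr9:70421555-70421804 on the minus strand.
Cdc20: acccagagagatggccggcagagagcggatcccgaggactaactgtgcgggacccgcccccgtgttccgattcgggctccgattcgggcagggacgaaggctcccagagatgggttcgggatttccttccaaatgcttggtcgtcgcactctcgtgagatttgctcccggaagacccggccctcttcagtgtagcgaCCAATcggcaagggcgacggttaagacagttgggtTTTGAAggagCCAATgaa
Ube2c: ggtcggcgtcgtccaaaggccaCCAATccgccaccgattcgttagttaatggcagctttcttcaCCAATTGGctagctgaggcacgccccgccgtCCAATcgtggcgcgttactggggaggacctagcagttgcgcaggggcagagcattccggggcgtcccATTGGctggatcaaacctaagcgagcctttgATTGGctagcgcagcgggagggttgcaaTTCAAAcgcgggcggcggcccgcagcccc
Ccnb2: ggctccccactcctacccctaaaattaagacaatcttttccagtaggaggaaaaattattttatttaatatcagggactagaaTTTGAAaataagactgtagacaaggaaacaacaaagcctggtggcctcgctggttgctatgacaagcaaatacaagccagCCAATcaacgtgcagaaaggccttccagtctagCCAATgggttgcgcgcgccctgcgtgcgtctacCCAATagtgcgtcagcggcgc
Each of these windows held 1 TTTGAA, and the number of CCAAT matches was 2 in Cdc20, 6 in Ube2c and 3 in Ccnb2. These windows were chosen to show the matches, and that of Aurka held 0 TTTGAA and 2 CCAAT. The end of the latter motif can overlap the start of the former by 1 base, and overlapping matches were all counted. In Ube2c the stretch CCAATTGG holds 2 of the 6 CCAAT matches, 1 on each strand, which overlap by 2 bases. The 15 measured mitosis genes with a window had 16 windows. Of these windows 7 held a TTTGAA and 15 a CCAAT, against 15.99% and 33.8% of all 32851 windows. A match is a run of letters and not a measured site.

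DNA replication genes fell at 6 h in both lines, and few were called at 24 h. Of 19 measured, 12 fell in αTC1 and 16 in βTC3 at 6 h, with median changes of -0.38 and -0.77. At 24 h 2 fell in αTC1 and 3 in βTC3, with medians of -0.02 and -0.19. The ribonucleotide reductase subunit Rrm2 changed by -1.65 ± 0.14 in αTC1 and -1.87 ± 0.16 in βTC3 at 6 h, and its values at 24 h were -0.43 ± 0.19 and -0.19 ± 0.24, which were not called (in αTC1 called at -0.54 with the array plate as a random block and at -0.596 without replicate 3). The helicase subunit Mcm7 changed by -0.99 ± 0.14 and -1.21 ± 0.12 at 6 h. Tyms, thymidylate synthase, was lower at both times in both lines, at -0.93 ± 0.18 and -0.86 ± 0.17 at 24 h. As means of its probe sets these were -0.25 and -0.27. Fen1, a flap nuclease, was called higher in αTC1 at 24 h (0.704 ± 0.22), a call lost without replicate 2 or 3, and Rfc4 was called higher there at both times, by 0.49 ± 0.11 at 24 h and by 0.29 ± 0.11 at 6 h, the latter lost under 6 of the alternatives.

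Among 10 CDK inhibitors and D-type cyclins, 3 rose and 1 fell in αTC1 at 6 h, 5 rose at 24 h (2 without replicate 2 and 3 without replicate 1, replicate 3 or the batch term), and in βTC3 2 rose and 3 fell at 6 h and 2 rose at 24 h. The inhibitor Cdkn1a (p21), a common target of deacetylase inhibitors in other cells, was not called at any time, with 0.11 ± 0.14 and 0.09 ± 0.19 in αTC1 and 0.0003 ± 0.11 and -0.08 ± 0.11 in βTC3. As the mean of its probe sets, however, it was called lower in βTC3 at 6 h, at -0.22. Cdkn1b (p27) fell at 6 h in both lines (-0.83 ± 0.19 and -0.67 ± 0.17), a βTC3 call that was lost without replicate 3 and was -1.38 as the mean of its probe sets. Ccnd2, cyclin D2, rose in αTC1 by 1.27 ± 0.20 at 24 h (0.504 as the mean of its probe sets). Ccnd3 rose by 0.85 ± 0.12 in αTC1 and 0.53 ± 0.11 in βTC3 at 6 h. Of 14 p53 target genes, between 1 and 4 rose and between 1 and 3 fell in each comparison at 6 and 24 h. Trp53inp1 rose in βTC3 by 1.47 ± 0.17 at 6 h (0.94 as the mean of its probe sets).

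Genes of the sterol pathway rose at 6 h in both lines. Of 14 measured, 12 rose in αTC1 and 11 in βTC3 and none fell, with medians of 0.75 and 0.71. Without the batch term 6 rose in βTC3. Msmo1, a sterol demethylase, stood at 9.55, 9.69 and 9.95 in αTC1 against 7.102 to 9.701 (median 8.04) in DMSO (1.24 ± 0.17, limma adjusted p = 2.07e-09), with the groups overlapping at their edges. Hsd17b7, a ketosteroid reductase of the pathway, rose by 1.16 ± 0.15 and 1.58 ± 0.16, Dhcr7, the last enzyme of the pathway, by 1.09 ± 0.20 and 0.97 ± 0.18, and mevalonate kinase, Mvk, by 0.95 ± 0.13 and 0.89 ± 0.14. At 24 h 7 were called higher in αTC1, with a median of 0.39. In βTC3 1 was higher at 24 h, the sterol reductase gene Tm7sf2 (1.73 ± 0.15), and 2 were lower, with 6 higher and 1 lower when only the batches that held the compound were fitted. Of 8 fatty acid synthesis genes 1 rose and 4 fell in αTC1 at both times (2 fell at 6 h without the batch term), with Fads2, a desaturase, at -0.83 ± 0.13 and -0.98 ± 0.17.

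Islet identity genes fell at 6 h. Nkx2-2 stood at 4.95, 4.69 and 4.91 in αTC1 at 6 h against 7.12 to 8.21 (median 7.54) in DMSO, and in βTC3 at 5.51, 6.300 and 4.75 against 7.600 to 8.54 (median 7.91) (-2.37 ± 0.20, limma adjusted p = 5.05e-16). At 24 h it was still lower, at -1.08 ± 0.22 and -1.14 ± 0.19. Of 11 beta cell markers 8 fell in βTC3 at 6 h and 4 at 24 h, with medians of -0.94 and -0.39, and with any 1 replicate left out 2 were called at 24 h. Pdx1, the pancreatic homeobox factor, changed by -1.14 ± 0.13 at 6 h in βTC3, Nkx6-1 by -1.15 ± 0.16, G6pc2 by -1.87 ± 0.16 and Glp1r, the receptor for GLP-1, by -1.21 ± 0.27. For Ins2 itself no change can be read in βTC3, since it was the brightest gene of the line and 74 of the line's 295 arrays shared the value 13.25. Its fitted changes there were -0.13 ± 0.056 and -0.05 ± 0.062, which were not called, with the 6 h value called without dim genes, without replicate 3 or as the mean of probe sets. Neurod1 fell at 6 h in both lines (-0.73 ± 0.18 and -0.94 ± 0.21), calls that were lost without replicate 2, and in αTC1 it rose at 24 h (0.76 ± 0.20).

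Of 7 alpha cell markers 5 fell in αTC1 at 6 h, with a median of -0.79. Irx1 stood at 5.69, 5.69 and 5.597 against 7.07 to 7.64 (median 7.32) (-1.75 ± 0.13), and Irx2, its neighbour in the same homeobox cluster, changed by -1.097 ± 0.094. At 24 h Irx1 and Irx2 were lower, at -0.78 ± 0.16 and -0.47 ± 0.13, both lost without replicate 2. Gcg was called higher in αTC1 at 24 h (0.36 ± 0.11), a call lost without replicate 1 or 3, on a gene that ranked 11 by brightness in the line. In βTC3 at 24 h Gcg ranged over 6.18 to 10.43 in DMSO and was called lower (-0.72 ± 0.20, limma adjusted p = 0.00308), with an adjusted p of 0.834 without the batch term. Among 16 genes of the insulin granule and secretion machinery, 3 rose and 2 fell in αTC1 at 6 h. At 24 h 6 rose and 2 fell there, with 3 and 0 without replicate 2. The genes that fell in αTC1 were the channel subunit genes Kcnj11 and Abcc8 at both times. In βTC3 2 rose and 4 fell at 6 h (2 fell without the batch term), and 1 rose and 2 fell at 24 h. Kcnj11, the pore subunit of the ATP-sensitive potassium channel, fell in every one of the 4 comparisons at 6 and 24 h (-0.76, -0.57, -0.65 and -0.43). The 24 h calls of Kcnj11 were lost without replicate 2 in αTC1 and without replicate 2 or 3 in βTC3.

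Interferon response genes rose in αTC1. Of 11 measured, 7 rose at 6 h and 6 at 24 h and none fell, with medians of 0.57 and 0.54. In βTC3 1 rose and 3 fell at 6 h, and 3 rose and 3 fell at 24 h, with medians of -0.05 and 0.06, and 1 fell at 24 h without replicate 1 or without replicate 3. Rsad2 rose in βTC3 too, to 5.95, 5.97 and 6.04 at 24 h from 3.71 to 4.99 (median 4.28) (1.84 ± 0.19, and 0.93 as the mean of its probe sets). Usp18, which removes ISG15 from proteins, rose by 1.18 ± 0.16 in αTC1 at 6 h and was at -0.36 ± 0.14 in βTC3, a call lost under 5 of the alternatives, with -0.06 without replicate 2. Stat2, a transcription factor of the pathway, rose by 1.15 ± 0.23 in αTC1, and Ifi35 by 1.099 ± 0.22. Ifit2, an antiviral RNA-binding protein, moved in opposite directions at 6 h, with 0.61 ± 0.13 in αTC1 and -0.93 ± 0.17 in βTC3 (-0.53 without replicate 3).

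The promoter of Rsad2 is shown since this gene had the largest rise of the list in all 4 comparisons at 6 and 24 h. It lies at chr12:26456453-26456702 (GRCm38.p6, RefSeq) on the minus strand, and capitals mark a match to the core of an interferon-stimulated response element (GAAA, any 2 bases and GAAA again), found on the strand opposite to the one printed.
Rsad2: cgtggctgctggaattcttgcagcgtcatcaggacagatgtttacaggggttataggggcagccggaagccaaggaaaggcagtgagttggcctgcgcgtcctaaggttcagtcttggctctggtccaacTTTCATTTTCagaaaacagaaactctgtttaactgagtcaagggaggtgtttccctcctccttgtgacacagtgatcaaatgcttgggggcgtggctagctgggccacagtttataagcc
The 9 measured interferon response genes with a window had 11 windows. Of these windows 4 held the motif (Ifit1, Ifit3, Rsad2 and Stat2), against 2.98% of all 32851 windows. Whether a factor binds there was not measured.

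Immediate early genes rose in αTC1, with 9 of 17 higher and none lower at 6 h, and 9 higher and 1 lower at 24 h. Without replicate 2 the 24 h count was 5 higher and 0 lower. In βTC3 6 rose and 4 fell at 6 h (3 rose without the batch term or without replicate 2, and 2 in the compound's batches), and 2 rose and 2 fell at 24 h. Egr1, a zinc finger factor induced by many stimuli, stood at 5.79, 5.51 and 5.22 in αTC1 at 6 h against 3.62 to 5.11 (median 4.33) (1.16 ± 0.24) and rose in all 4 comparisons at 6 and 24 h. Klf6 rose in αTC1 by 1.25 ± 0.17 at 6 h (0.61 as the mean of its probe sets), and its value in βTC3 was -0.31 ± 0.19, which was not called but was called without replicate 3 (-0.59). Fos rose in αTC1 at 24 h by 1.31 ± 0.26. Jun was lower in βTC3 at 6 h (-0.98 ± 0.16).

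ER and amino acid stress genes were mostly higher at 6 h and mostly lower at 24 h among those called in αTC1. Of 17 measured 9 rose and 1 fell at 6 h, with a median of 0.33, whereas 3 rose (1 without replicate 2) and 8 fell at 24 h, with a median of -0.41. Creld2, an ER chaperone-like protein, rose by 1.17 ± 0.095 at 6 h and the disulfide isomerase Pdia4 by 1.04 ± 0.30. At 24 h Trib3, a pseudokinase induced by amino acid shortage, changed by -1.67 ± 0.27, Herpud1, of ER-associated degradation, by -1.12 ± 0.13, and Chac1, which breaks down glutathione, by -1.24 ± 0.19. In βTC3 2 rose and 6 fell at 6 h and 8 fell at 24 h, with 5 at 24 h without the batch term. There Trib3 changed by -1.25 ± 0.22, and Xbp1, a transcription factor of the ER response, by -0.81 ± 0.12.

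Of 12 genes listed for oxidative stress and NRF2, 6 rose and 1 fell in αTC1 at 6 h and 5 rose at 24 h. In βTC3 3 rose and 5 fell at 6 h (2 fell without the batch term and 3 without replicate 2). Each of these counts of rises includes the glucose-responsive Txnip. Hmox1, heme oxygenase, rose in αTC1 to 7.66, 7.895 and 7.75 at 6 h from 5.28 to 6.93 (median 5.94) (1.51 ± 0.22). Srxn1, a sulfiredoxin, was lower in βTC3, at -1.28 ± 0.17 at 24 h. Txnip remained higher at 6 and 24 h, by 1.54 ± 0.25 in αTC1 and 0.71 ± 0.14 in βTC3 at 24 h. Among 10 lysosome and autophagy genes 4 rose in αTC1 at 6 h and 1 fell, the autophagy gene Gabarapl1. At 24 h 7 rose there, with a median of 0.64. Ctsl, cathepsin L, rose by 1.61 ± 0.13, Gla, alpha-galactosidase A, by 1.44 ± 0.19 and Lamp2, a membrane protein of the lysosome, by 0.93 ± 0.11. In βTC3 none of the 10 was called at 6 h and 5 rose at 24 h, with 2 or 3 without the batch term or without replicate 2 or 3, led by Gla (0.597 ± 0.13).

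Chromatin genes moved in both directions. Hdac1, a class I deacetylase, rose in αTC1 to 9.58, 9.598 and 9.43 at 6 h from 8.36 to 8.66 (median 8.496) (1.07 ± 0.081) and in βTC3 by 0.58 ± 0.077. It was also called higher at 24 h, by 0.51 ± 0.095 and 0.26 ± 0.072, the latter lost under 3 of the alternatives, among them the omission of replicate 3. The acetyltransferase Kat2b fell in all 4 comparisons at 6 and 24 h, with changes of -1.51 ± 0.13 at 6 h and -1.73 ± 0.19 at 24 h in αTC1 (-0.99 as the mean of its probe sets) and of -0.75 ± 0.12 and -0.62 ± 0.12 in βTC3. The maintenance DNA methyltransferase Dnmt1 fell at 6 h (-0.82 ± 0.14 and -1.53 ± 0.12), as did Dnmt3a (-1.43 ± 0.16 and -0.68 ± 0.12). Of 10 histone genes 5 rose and 1 fell in αTC1 at 6 h (3 rose without replicate 3 or the batch term), and 3 rose and 4 fell at 24 h, with 1 rising without replicate 2. In βTC3 2 rose and 2 fell at 6 h, and 1 rose and 5 fell at 24 h, with 2 falling without replicate 2 and 1 in the compound's batches. At 6 h the linker histone H1f2 rose by 1.37 ± 0.16 in αTC1 and by 0.94 ± 0.15 in βTC3. The replacement histone gene H2aj rose by 1.01 ± 0.13 in βTC3 at 24 h (0.44 as the mean of its probe sets). Of 9 heat shock genes at most 3 were called in any comparison at 6 or 24 h. Of 12 ribosomal, mitochondrial and other housekeeping genes none was called in αTC1 at 6 h and 3 at 24 h. In βTC3 8 were called at 6 h (2 without replicate 2) and 4 at 24 h. Actb and Gapdh, neither ribosomal nor mitochondrial, were among the βTC3 calls at both times, as genes called lower. Of 17 neuronal genes between 2 and 5 rose and between 1 and 4 fell.

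**Figure D3:**
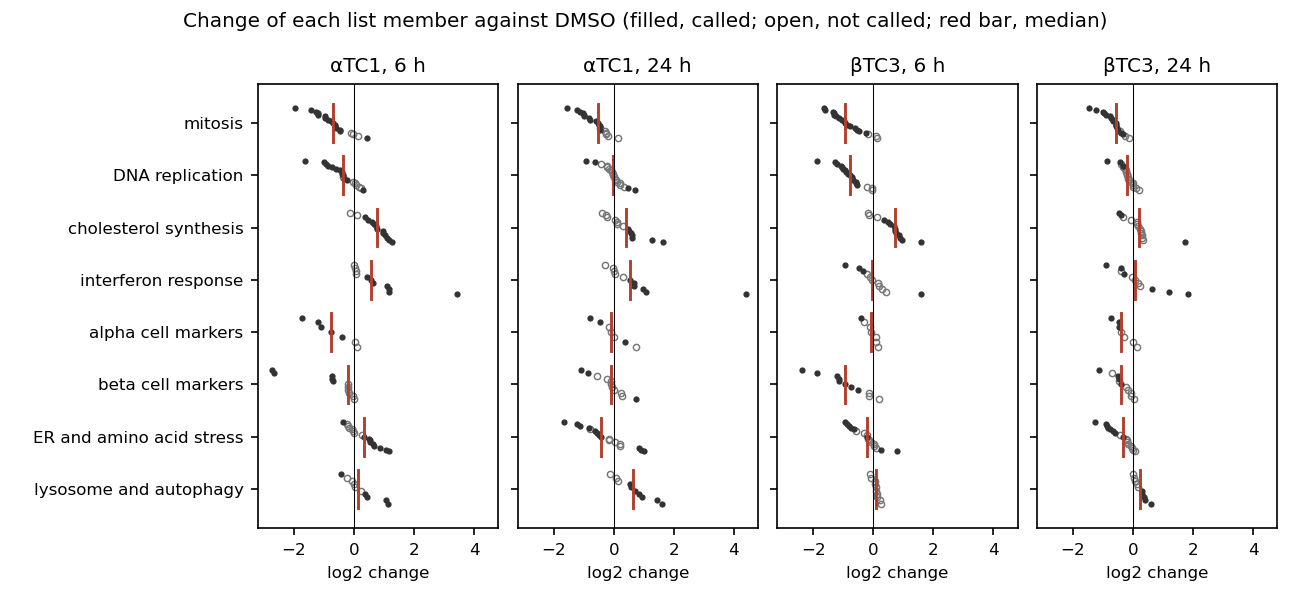
Log2 change against DMSO of each measured member of 8 gene lists in the 4 comparisons at 6 and 24 h, with filled points for called genes, open points for others and a red bar at the list's median. The mitosis medians lie left of 0 in all 4 panels, from -0.95 to -0.53, and the cholesterol synthesis medians lie right of 0 at 6 h, at 0.75 and 0.71.

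The effects of the compound were then compared between the lines, which used different DMSO arrays. Of the genes called in each line, 2471 were called with the same sign in both at 6 h, which is 58.7% of the αTC1 calls and 55.6% of the βTC3 calls, and 171 were called with opposite signs. At 24 h 1528 were shared with the same sign (44.0% and 53.8%) and 131 were opposite. Among genes changed at least 2-fold in both lines 280 agreed in sign at 6 h and 0 were opposite, and at 24 h 117 agreed and 1 was opposite. Across all genes, which are not independent replicates, the log2 changes of the lines correlated with Pearson's r of 0.636 at 6 h and 0.558 at 24 h.

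The difference between the lines was tested in a joint fit. At 1 h 0 genes were called (663 had an unadjusted p below 0.05). At 6 h 2337 genes differed (19.8%), 1418 (12%) with the αTC1 effect above the βTC3 effect and 919 (7.78%) with it below, but with arrays centred on their medians the split was 876 and 1927, so the direction of small differences depends on the scaling. At 24 h 1699 genes differed (14.4%), 724 (6.13%) above and 975 (8.26%) below. Gsta4 had the largest difference at 24 h, with 4.86 in αTC1 and 0.11 in βTC3 (difference 4.75 ± 0.33, limma adjusted p = 5.92e-25). In βTC3 its level was 3.603, 3.401 and 3.49 with the compound and 3.15 to 3.46 (median 3.26) in DMSO, near the low end of the array's range in both.

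Hba-a1 (3.65 ± 0.36), Serpini1 (2.86 ± 0.28), Sqor (2.84 ± 0.31), the galectin gene Lgals1 (2.76 ± 0.32) and Phf20l1, a reader of methylated lysine (2.87 ± 0.25), also rose more in αTC1. As means of their probe sets the difference was 0.905 for Phf20l1 and 1.45 for Sqor. Phf20l1 stood at 5.39 to 6.59 in αTC1 DMSO and at 10.42 to 11.299 in βTC3 DMSO, so its starting level differed. Rsad2 rose in both lines and by 2.56 ± 0.43 more in αTC1. In the other direction, Kcnk2 fell in αTC1 and was at 2.99, 2.97 and 2.904 in βTC3 against 2.97 to 3.33 (median 3.07) in DMSO, at the low end of the range in both (difference -3.01 ± 0.30). Dpyd rose in βTC3 and was at 0.08 ± 0.14 in αTC1 (-2.51 ± 0.30). Tesc, Deptor and Mcrip2 were called in both lines with opposite signs, though the αTC1 call of Deptor was lost without replicate 1 or replicate 2. The calcium-binding protein Tesc was at -0.88 in αTC1 and 1.48 in βTC3 (-2.36 ± 0.30), the mTOR inhibitor Deptor at -0.98 and 1.04 (-2.02 ± 0.34), and Mcrip2 at -1.41 and 0.88 (-2.29 ± 0.19).

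**Figure D4:**
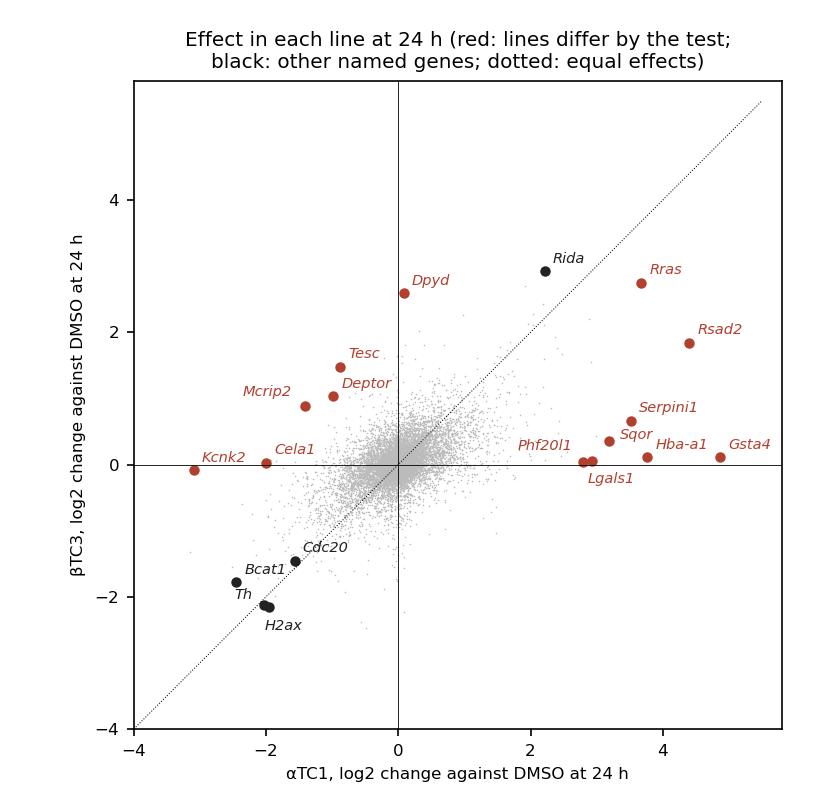
Log2 change with BRD-K17311666 against DMSO at 24 h in αTC1 (x axis) and βTC3 (y axis) for all 11807 genes (grey), with red points where the lines differ by the test, black points for other named genes and a dotted line of equal effects. Rida, Th, H2ax and Cdc20 lie near the dotted line, and Gsta4, Hba-a1 and Kcnk2 lie near 0 in βTC3.

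The effects at 6 and 24 h were compared within each line. In αTC1 2354 genes were called with the same sign at 6 and 24 h, which is 56.0% of the calls at 6 h and 67.8% of those at 24 h, and 75 with opposite signs. In βTC3 1918 were shared (43.1% and 67.5%) and 78 were opposite. The effect at 24 h differed from that at 6 h in 1321 genes in αTC1 (11.2%), 464 (3.93%) above and 857 (7.26%) below (590 and 663 with centred arrays). In βTC3 it differed in 1712 genes (14.5%), 1018 (8.62%) above and 694 (5.88%) below (769 and 1012 with centred arrays).

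In αTC1 G6pc2 was lower at 6 h and was not called at 24 h, where its level was 8.85, 6.47 and 9.202 against 8.15 to 9.31 (median 8.71), with replicate 2 below the DMSO range and the other two arrays inside it (2.16 ± 0.32 between the times, limma adjusted p = 1.04e-07). Without replicate 3 it was called at 24 h (-0.98), and without replicate 2 its change was 0.071. Hba-a1 rose later, by 0.74 at 6 h and 3.76 at 24 h. Cryba2 fell later, with -0.68 at 6 h and -3.14 at 24 h. Chac1 turned from 0.61 at 6 h to -1.24 at 24 h. In βTC3 Dpyd (0.297 at 6 h and 2.596 at 24 h) and Gstk1 (0.42 and 2.700) rose later. Ptger4 was higher at 6 h (2.75) than at 24 h (1.09), and H1f2 turned from 0.94 to -0.505, the latter a call lost under 8 of the alternatives. The probe-set mean gave Ptger4 a smaller difference between the times, -0.91 in place of -1.67.

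BRD-K17311666 was last set directly against each of the 28 other compounds at the same line and time, 28 pairs in each of the 6 combinations. Doses differed between the compounds, as did the batches they shared with BRD-K17311666, so each value compares only the groups as given. At 6 h the compounds divided widely. The 8 hydroxamic acids, the cyclic tetrapeptides apicidin and HC-toxin and the code-named BRD-K22912318, BRD-K90919562, BRD-K92415738 and BRD-A94377914 differed from BRD-K17311666 in 0 to 379 genes in αTC1 and in 0 to 1138 in βTC3. The other 14, with the anilides MS-275, CI-994 and MGCD-0103 among them, differed in 3149 to 4485 genes in αTC1 and 3398 to 4071 in βTC3.

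Summed over the 4 comparisons at 6 and 24 h, BRD-K22912318 differed in the fewest genes, 9 in all. At 24 h its counts of 1 and 2 were the lowest in the 2 lines, in αTC1 among compounds with 2 to 4 arrays. At 6 h 4 other compounds shared its count of 0 in αTC1, and 4 had lower counts than its own in βTC3. In αTC1 at 6 h 750 genes had an unadjusted p below 0.05 by limma, against 318 for BRD-K92415738, which also had 0 calls. For BRD-K22912318 in βTC3 at 6 h that number was 1102 (9.33%). In βTC3 at 6 h 6 genes were called against BRD-K22912318 (0.0508%), and Abhd3 was higher with BRD-K17311666 by 1.196 (95% interval 0.73 to 1.66, adjusted p = 0.0162). The others, named after their values were seen, were Pcdh8, the securin gene Pttg1 and Taf13, which were higher, and the clathrin adaptor gene Ap2b1 and Atl3, which were lower. All 6 calls were lost without replicate 3. At 24 h 1 gene was called in αTC1 (0.00847%), the channel-associated Tcaf2, which stood at 5.37 against 4.08 and differed by 1.297 (95% interval 0.805 to 1.79, adjusted p = 0.019), a call lost without replicate 1 or 2 (0.87 without replicate 2). In βTC3 2 genes were called at 24 h (0.0169%), the heat shock gene Hspa1b, at 0.75 (95% interval 0.44 to 1.06, adjusted p = 0.0467), and Prss16, a thymic serine protease, at 0.99 (95% interval 0.62 to 1.36, adjusted p = 0.0158). Neither call was kept when any replicate was left out. A missed threshold does not show that the compounds act alike, so the intervals are given. Of the 731 genes changed at least 2-fold against DMSO in αTC1 at 6 h, the 95% interval of the difference between the compounds lay within a log2 of 1 of 0 for 693. That margin equals the least change by which the genes were picked, so it is lenient. With a margin 1/2 as wide the count was 299 of 731. It was then 78 of 598 in αTC1 at 24 h and 26 of 260 in βTC3 at 24 h. Within a log2 of 1 the counts were 512 of 598 in αTC1 at 24 h, 621 of 674 in βTC3 at 6 h and 206 of 260 at 24 h. By this measure BRD-K22912318 was not nearest throughout. Its count was the highest in αTC1 at 24 h. In αTC1 at 6 h, however, BRD-K92415738 had 725 of 731, and in βTC3 at 24 h pyroxamide had 238 of 260.

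By the number of calls BRD-K90919562 was close at 6 h and differed at 24 h. At 6 h 0 genes were called in αTC1, where 584 had an unadjusted p below 0.05 by limma (4.95%). In βTC3 2 were called (0.0169%), while 1165 had an unadjusted p below 0.05 (9.87%). The 2 called genes were named after their values were seen. They were Alas1, the first enzyme of heme synthesis, and Gli1, a transcription factor of the hedgehog pathway, both lower with BRD-K17311666, with differences of -0.73 and -0.57 (limma adjusted p = 0.0499 for both), calls that were each lost under 6 of the alternatives. At 24 h 657 were called in αTC1 (5.56%), with 97 left without replicate 2, and 736 in βTC3 (6.23%). In αTC1 the mean level of Rsad2 at 24 h was 9.52 against 7.600, a difference of 1.92 (95% interval 0.996 to 2.85, adjusted p = 0.00563). Kcnk2 differed by -1.64 (95% interval -2.32 to -0.95, adjusted p = 0.00143) and Cdc20 by -1.31 (95% interval -1.81 to -0.803, adjusted p = 0.000597), so both were lower with BRD-K17311666. Without replicate 2 the differences were 1.69 for Rsad2 (limma adjusted p = 0.099), -1.38 for Kcnk2 (0.0624) and -1.05 for Cdc20 (0.0497), so the calls of Rsad2 and Kcnk2 rest on that array. Gsta4 was not called, with 0.56 (95% interval -0.15 to 1.27, adjusted p = 0.464). In βTC3 at 24 h Rbpms differed by -1.62 (95% interval -2.02 to -1.23, adjusted p = 4.16e-08), Th by -1.74 (95% interval -2.27 to -1.21, adjusted p = 7.45e-06) and Abhd3 by 1.36 (95% interval 0.85 to 1.87, adjusted p = 0.000228). As the mean of its probe sets Rbpms differed by -0.65. Whether the 6 h and 24 h differences between these compounds differ was not tested. The αTC1 count ran from 97 to 627 and the βTC3 count from 268 to 586 when single replicates were left out.

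BRD-K62233722 differed in 3262 genes in αTC1 (27.6%) and 3698 in βTC3 (31.3%) at 6 h, and in 2025 (17.2%) and 1977 (16.7%) at 24 h. At 24 h Rsad2 in αTC1 stood at 9.52 against 5.57, with a fitted difference of 3.72. These compounds shared no batch in αTC1 at 24 h, so the contrast there rests on batch terms estimated from other arrays. In αTC1 at 24 h SAHA, with 2 arrays, differed in 12 genes, and its intervals were wider, with a median half-width of 0.388 against 0.321 for BRD-K22912318. The half-width was 0.388 for BRD-K62233722 as well. Narrower ones were found for BRD-K92415738 (0.364) and CI-994 (0.374), which also had 2 arrays. The part of batch in these widths was not tested. In βTC3, with 3 arrays per compound, pyroxamide differed in 52. SAHA differed in 329 genes in βTC3 and pyroxamide in 969 in αTC1. Apicidin differed in 301 and 574. The methyltransferase inhibitor chaetocin differed in 4806 genes in αTC1, with 4 arrays, and in 3563 in βTC3, with 3.

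**Figure D5:**
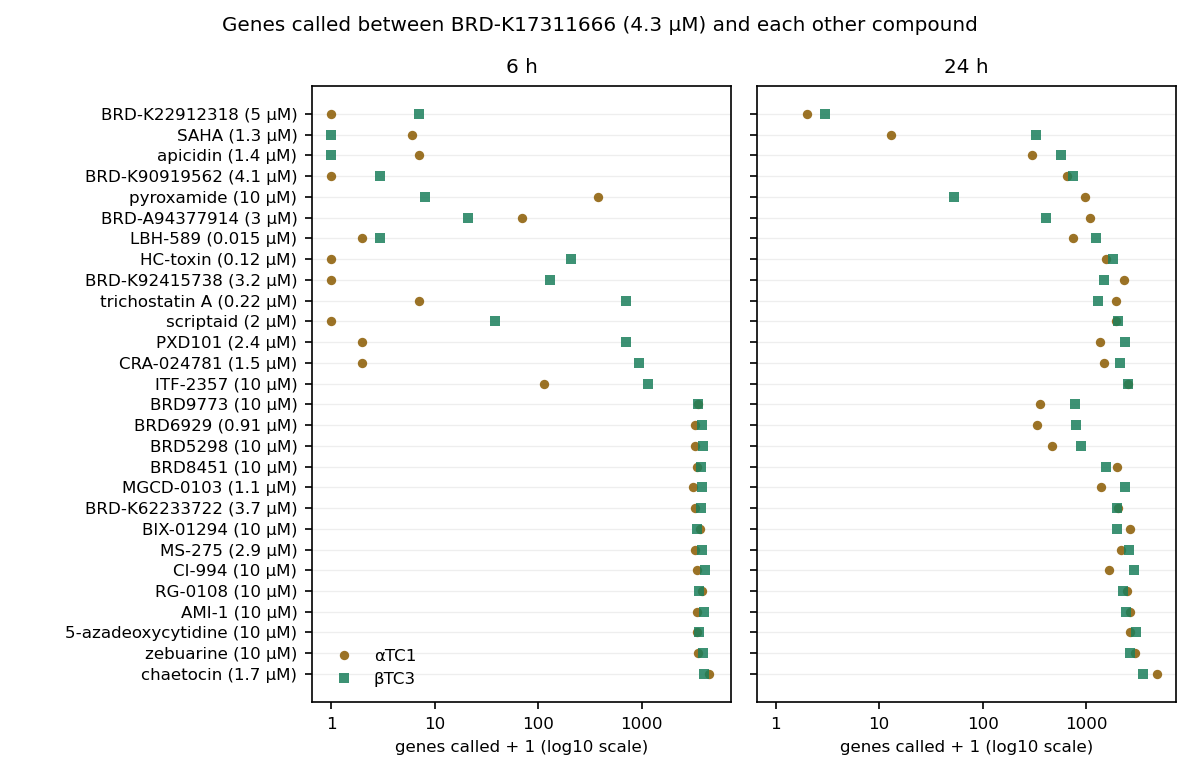
Genes called between BRD-K17311666 (4.3 µM) and each of 28 other compounds at 6 h (left) and 24 h (right), in αTC1 (circles) and βTC3 (squares), as the number called plus 1 on a log10 axis, with each compound's dose. At 6 h 14 compounds lie at 3149 genes or more in both lines and the other 14 at 379 or fewer in αTC1, and at 24 h BRD-K22912318 lies lowest, in αTC1 beside compounds with 2 to 4 arrays.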

How the data were processed

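Expression was read on 594 arrays, 299 of αTC1 and 295 of βTC3. For every probe set on every array the authors deposited an intensity, summarised with RMA per the submitters' processing notes, whose version is not given in the sources used here. The deposited intensities are on a linear scale (3.962 to 13635), so log2 was taken before all tests, and RMA's own scaling across arrays may compress low values. Of 22716 probe sets 18003 carried 1 gene symbol, 287 several and 4426 none in the annotation used, and only the first kind was kept. Where a gene had several probe sets (4150 of the 11807 genes) the brightest on average stood for it. Among 588 values of named genes with several probe sets, 50 had signs that disagreed beyond a log2 of 0.1.

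Line, compound, dose, time, batch (7 batches) and replicate came from the titles, and DMSO titles hold no replicate number. Tests used limma 3.58.1 in R 4.3.3 (with the packages data.table, version 1.17.8, and statmod, version 1.5.0) with batch as a term, each line and time fitted with all its arrays, and joint fits with batch terms of their own for differences between lines and times. Benjamini-Hochberg adjustment ran over all genes of a comparison. A change ± SE is on the log2 scale. The code was tested on simulated data.

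Genes were named by rule. At 6 and 24 h it took called genes whose 3 arrays lay outside the DMSO range, the 6 that rose and the 6 that fell most, at 1 h up to 10 called genes, for the line and time differences 6 each way, for direct contrasts 4 each way, up to 4 called members of each of 21 lists, and some genes set beforehand. The members, lists, comparison compounds and rule were chosen with earlier results of these data known. Replicate numbers paired arrays between 6 and 24 h within a line, where same-numbered arrays shared a batch (correlations of deviations 0.209 to 0.386 in αTC1 and 0.209 to 0.421 in βTC3), but not with 1 h, where several of them lay in other batches, and not across lines. Alternatives are given at the end. The number of arrays limits the precision.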

Additional observations from a re-analysis of the deposited data

Results flagged for a closer look

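The groups that received the compound hold 3 arrays each and were not tested for an array far from the others. Dixon's test was made on 60 genes in the DMSO group of βTC3 at 6 h, the only group here of 4 to 10 arrays, where chance alone would flag about 5%. The gene with such an array was Ins2, whose highest array stood at 13.49 and the next at 13.27, at the top of the intensity scale.

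The effect of BRD-K17311666 differed between the lines at 24 h by the interaction test for 13 genes named here. As αTC1 minus βTC3 on the log2 scale the difference was 4.75 for Gsta4, 3.65 for Hba-a1, 2.86 for Serpini1, 2.87 for Phf20l1, 2.76 for Lgals1, 2.84 for Sqor and 2.56 for Rsad2. It was -3.01 for Kcnk2, -2.36 for Tesc, -2.51 for Dpyd, -2.02 for Deptor, -2.29 for Mcrip2 and -2.02 for Cela1. Kcnk2, Gsta4, Lgals1 and Cela1 had mean levels under 4 in βTC3 with and without the compound.

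In αTC1 the effect at 24 h differed from that at 6 h by the same kind of test. As 24 h minus 6 h the difference was 3.02 for Hba-a1, 1.98 for the milk casein gene Csn3, 2.16 for G6pc2, 2.16 for Gpx6, 1.78 for the nuclear receptor gene Rorb and 1.96 for Hal, histidine ammonia-lyase. It was -2.47 for Cryba2, -1.6 for Acyp2, -1.6 for Pcbd1, -2.02 for the testis bromodomain gene Brdt, -1.85 for Chac1 and -1.72 for the amino acid transporter gene Slc7a5.

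In βTC3 the effect at 24 h exceeded that at 6 h by 2.3 for Dpyd, 2.28 for Gstk1, 2.09 for the nuclear RNA Neat1, 1.9 for Rida, 1.92 for Atf7ip and 1.87 for Anapc15. The difference was -2.09 for Fscn1, an actin-bundling protein, -1.47 for Rhpn2, -1.47 for Galnt4, -1.55 for Kdelr3, -1.67 for Ptger4 and -1.44 for the linker histone gene H1f2. The Kdelr3 call was lost without the batch term. As means of all probe sets the differences were smaller for Fscn1 (-0.600), Galnt4 (-0.64) and Ptger4 (-0.91) in βTC3. They were also smaller for Csn3 (1.01) and Brdt (-1.04) in αTC1, and for Phf20l1 (0.905) and Sqor (1.45) between the lines.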

How the results depend on the processing

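The counts of genes against DMSO at 6 and 24 h, and of the line difference at those times, stayed within 1.5 times under the alternatives that kept all 3 replicates (no batch term, plate as a random block, quantile normalization, median centring, omission of dim genes, averaging of a gene's probe sets, only the groups compared, a replicate block and only the batches with the compound). At 1 h αTC1 gave 14 calls with the plate block, 8 without dim genes and 2 in the compound's batches, and βTC3 gave 4 without the batch term, 1 with only the groups compared and 2 in the compound's batches. The line difference at 1 h gave 2 calls with the plate block, centring, without dim genes and with the mean of probe sets. The time difference in βTC3 was 1039 without the batch term and 878 with only the groups compared. At 24 h BRD-K90919562 differed in 318 (αTC1) and 317 (βTC3) genes without the batch term, in 1126 and 1110 with the plate block, and in 1162 in αTC1 with only the groups compared. BRD-K22912318 gave 0 in αTC1 without dim genes and with only the groups compared, and in βTC3 0 without the batch term, with the plate block, after quantile normalization and with only the groups compared, and 1 with centring and with the replicate block. The contrast in βTC3 with BRD-K90919562 had 365 genes above and 379 below after quantile normalization. The cause of these shifts was not tested. BRD-K62233722 could not be fitted with only the groups compared.

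With the replicate block 4233 and 3499 genes were called in αTC1 and 4484 and 2912 in βTC3 at 6 and 24 h, and 1395 and 1603 for the time differences, and the block moved no other count by over 1.5 times. With single replicates left out the counts were 1 to 5, 3536 to 3600 and 2513 to 2943 in αTC1 at 1, 6 and 24 h, and 1 to 17, 3876 to 3979 and 1897 to 2379 in βTC3. The line difference gave 0 to 0, 1724 to 2246 and 1158 to 1514, and the time difference 914 to 1098 in αTC1 and 1314 to 1576 in βTC3. At 24 h the direct contrasts gave 0 to 1 and 0 to 0 for BRD-K22912318, 97 to 627 and 268 to 586 for BRD-K90919562, and 1412 to 1820 and 1218 to 1737 for BRD-K62233722. Of 3854 values of 323 single results under the alternatives, 3633 kept direction and call, 211 lost the call, 9 gained it and 1 reversed, Cdkn1a in βTC3 at 6 h, which was 0.0003 and not called on its brightest probe set and -0.22 and called as the mean of its probe sets.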
